A study of Mus musculus with 4 samples.

Results

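Heat shock proteins and DnaJ (J domain) proteins are the chaperones that fold, refold and escort other proteins. Open chromatin at their genes was examined in G1ER cells, a mouse erythroblast line, with and without the chromatin remodeller CHD7. The genes were chosen by name only: protein-coding genes of the GRCm38 RefSeq annotation whose symbols start with Dnaja, Dnajb, Dnajc, Hspa, Hspb, Hsp90, Hspd, Hspe, Hsph or Hsf. This gave 81 of 21887 genes. A region belonged to a gene if it lay in the gene's span or within 1 kb of either end. Of 15328 accessible regions in the data, 65 did, and 55 of the 81 genes had at least 1.

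Accessibility was measured by ATAC-seq, where DNA left bare of nucleosomes is cut and tagged by a transposase and then sequenced. Chd7-/- G1ER cells (2 libraries) were set against wild-type G1ER cells (2 libraries), each library from 50000 cells. All were grown with erythropoietin and stem cell factor and received no other treatment. The line lacks Gata1 itself and bears a GATA1 fusion to the ligand-binding part of the estrogen receptor, a background that both genotypes share. The labelled time was 1 h for the first and 2 h for the second replicate of each genotype, and transposition is described as lasting 1 to 2 h. Both Chd7-/- libraries carry the same code, E9, so knockout and line cannot be told apart. Nothing in the labels says that replicates were separate cultures, and p-values then measure a spread that may be technical.

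The lists held 12443 and 11376 peaks in the Chd7-/- libraries and 11084 and 12043 in the wild-type libraries. Total reads were not given. The summit pileup, the number of fragments over a peak's highest point, had a median over all peaks of 20 and 19 in Chd7-/- and 19 and 22 in wild type. Precision was limited by pileups of this size and by the 2 libraries of each genotype. Of 12 erythroid marker genes 9 had a region, 7 of them in all 4 libraries. The 7 included the Gata1 locus, although the line lacks Gata1 itself. Tal1 had a region called in 3 libraries at most, and the region of Epb42 was called in wild type only, beside 2.25% of all regions. Slc4a1, Hbb-bt and Hba-a1 had none. None of the 3 B cell, 3 T cell and 4 myeloid markers had a region, and 2 of 3 megakaryocyte markers did.

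Chaperones work as cycles of partners. A J protein hands an unfolded client to an Hsp70 and stimulates its ATPase, nucleotide exchange factors release the client, and Hsp90 finishes the folding of many kinases and receptors, while small heat shock proteins hold unfolding proteins. Heat shock factors switch on cytosolic chaperone genes through repeated GAA and TTC triplets called heat shock elements, and the unfolded protein response of the endoplasmic reticulum acts through a separate element in the promoters of that compartment's chaperones. Red cell precursors use these systems while they make large amounts of globin, and in human erythroblasts HSP70 is known to protect GATA1 from cleavage.

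Among the 65 chaperone genes with a RefSeq promoter sequence, 3 held an endoplasmic reticulum stress element, read here as CCAAT and CCACG with 9 bases between them on either strand. The share was 4.62%, against 0.166% of all 17492 promoters (29 genes). The element was added to the motifs searched after results of these data were seen. It is known from promoters of endoplasmic reticulum chaperones, as given above, so the contrast between these shares is not a test. A promoter here means 250 bases before to 50 after a start. The 3 genes, Hspa5, Hsp90b1 and Dnajc3, encode the Hsp70, the Hsp90 and a J protein of the endoplasmic reticulum. Their upstream 250 bases are shown 5′ to 3′ on the gene's strand because each lies inside a region called in all 4 libraries. They run over chr2:34771840-34772089 (+ strand), chr10:86705445-86705694 (- strand) and chr14:118937682-118937931 (+ strand) of GRCm38.p6, from RefSeq, with the element in capitals.
Hspa5: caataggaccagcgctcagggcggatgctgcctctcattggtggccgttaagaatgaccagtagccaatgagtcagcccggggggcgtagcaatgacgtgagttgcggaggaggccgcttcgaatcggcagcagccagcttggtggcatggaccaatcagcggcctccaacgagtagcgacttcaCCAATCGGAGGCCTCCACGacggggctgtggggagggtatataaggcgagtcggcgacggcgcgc
Hsp90b1: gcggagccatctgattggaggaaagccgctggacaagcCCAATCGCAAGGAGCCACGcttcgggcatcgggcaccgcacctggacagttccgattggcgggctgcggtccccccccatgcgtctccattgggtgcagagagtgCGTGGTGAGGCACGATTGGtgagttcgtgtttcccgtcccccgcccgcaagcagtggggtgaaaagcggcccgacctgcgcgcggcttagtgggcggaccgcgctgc
Dnajc3: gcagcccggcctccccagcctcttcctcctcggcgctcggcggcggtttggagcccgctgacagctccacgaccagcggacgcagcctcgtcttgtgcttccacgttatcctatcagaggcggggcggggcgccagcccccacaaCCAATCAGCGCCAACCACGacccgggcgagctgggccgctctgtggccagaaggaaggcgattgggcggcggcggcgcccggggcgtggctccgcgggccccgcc
The element began at base -65 from the Hspa5 start and at base -105 from the Dnajc3 start, where negative is upstream. Hsp90b1 held it in both orientations, at bases -212 and -107. All of these copies lay inside the called regions. At Hspa5 the middle of the element was 63 and 114 bp from the strongest summit in Chd7-/- and 6 and 39 bp in wild type. The Hsp90b1 copy at -212 was 30 and 3 bp from the summit in Chd7-/- and 4 bp in each wild-type library. The copy at -107 was 75 and 102 bp from it in Chd7-/- and 109 and 101 bp in wild type. At Dnajc3 the distances were 50 and 49 bp in Chd7-/- and 58 and 44 bp in wild type. A match of letters is a description and not a bound site.

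A heat shock element, searched as GAANNTTC or TTCNNGAA on either strand with overlaps allowed, was in 17 of the 65 chaperone promoters (26.2%), against 15.7% of all promoters. It was in 9 of the 43 genes that had a region and in 8 of the 22 that had none. The promoters shown next are from both kinds: Hspe1 and Hsph1 had a region in all 4 libraries, and Hspa1a and Hspa1b, the heat-inducible Hsp70 pair, had none. They are from chr1:55087898-55088147 (+ strand), chr5:149636337-149636586 (- strand), chr17:34972157-34972406 (- strand) and chr17:34959239-34959488 (- strand) of GRCm38.p6, from RefSeq, with heat shock elements in capitals.
Hspe1: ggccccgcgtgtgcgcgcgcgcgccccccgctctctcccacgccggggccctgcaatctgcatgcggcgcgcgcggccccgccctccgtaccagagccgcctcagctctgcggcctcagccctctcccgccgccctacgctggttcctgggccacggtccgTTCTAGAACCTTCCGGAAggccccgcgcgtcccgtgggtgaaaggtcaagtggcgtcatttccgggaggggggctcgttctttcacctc
Hsph1: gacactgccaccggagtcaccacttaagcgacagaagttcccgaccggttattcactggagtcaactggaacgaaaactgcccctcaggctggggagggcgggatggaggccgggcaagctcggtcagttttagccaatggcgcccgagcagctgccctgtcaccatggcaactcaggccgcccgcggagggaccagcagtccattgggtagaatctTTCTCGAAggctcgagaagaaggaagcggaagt
Hspa1a: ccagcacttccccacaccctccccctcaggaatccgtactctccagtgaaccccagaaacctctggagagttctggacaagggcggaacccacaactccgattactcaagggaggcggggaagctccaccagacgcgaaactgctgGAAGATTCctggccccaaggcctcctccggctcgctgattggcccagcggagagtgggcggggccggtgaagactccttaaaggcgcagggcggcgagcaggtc
Hspa1b: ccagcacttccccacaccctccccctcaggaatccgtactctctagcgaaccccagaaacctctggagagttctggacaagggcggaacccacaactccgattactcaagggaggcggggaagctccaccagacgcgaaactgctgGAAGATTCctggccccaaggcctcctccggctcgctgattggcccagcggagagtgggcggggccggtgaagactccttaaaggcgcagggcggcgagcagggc
Hspe1 held 3 overlapping copies that began 89, 84 and 79 bases before its start, and all lay in the region that it shares with Hspd1. The single copy at Hsph1, chr5:149636362-149636369, began 33 bases before the start used for the sequence shown, inside its region. The annotated span of Hsph1 reaches base 149636498 on this side, so the copy lay within the span and not upstream of the whole gene. The middle of the copy was 36 and 60 bp from the summit in Chd7-/- and 30 and 32 bp in wild type. Hspa1a and Hspa1b carried 1 copy each, 104 bases before the start. Their 300-base promoters were identical at 296 positions (98.7%), with an unbroken identical run of 201 bases. Reads from such copies can be lost or misplaced by mapping, so the lack of a region at either gene is uncertain. The nearest region, chr17:34981537-34982447 at Lsm2, was called in all 4 libraries and lay 9381 bp from Hspa1a, 22299 bp from Hspa1b and 2309 bp from Hspa1l.

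CCAAT was in 44.6% of chaperone promoters and 42.3% of all promoters. TATAAA was in 7.69%, against 14.8% of all promoters. The GATA motif, searched as AGATAA, was in 6.15% of them and in 11.2% of all promoters. The RUNX motif, searched as TGTGGT, was in 7.69% of them and in 17.2% of all promoters. Both strands were searched for each. Chaperone promoters with a region were rich in CpG. The ratio of observed to expected CpG had a median of 0.877 in the 43 genes with a region and 0.530 in the 22 without, beside 0.792 and 0.276 over all genes with and without a region.

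Regions were present at most chaperone genes. Of the 81 genes 55 (67.9%) had a region in at least 1 library, against 45.8% of all genes, and 46 (56.8%) had a region called in all 4, against 36.6%. The families differed. Each of the 3 Hsp90 genes, and Hspd1, Hspe1 and Hsph1, had a region in all 4 libraries. The Hsp70 family, Hspa, had 9 of 13. Among the J proteins, Dnaja had 3 of 4 genes, Dnajb 8 of 13 and Dnajc 15 of 28 with a region in all 4. The genes named as small heat shock proteins, Hspb, had 2 of 8. Hspbp1 and Hspbap1, which the naming rule also takes, were counted apart, and 1 of these 2 had a region in all 4 libraries. The genes of Hsf symbol had 2 of 7.

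**Figure D1:**
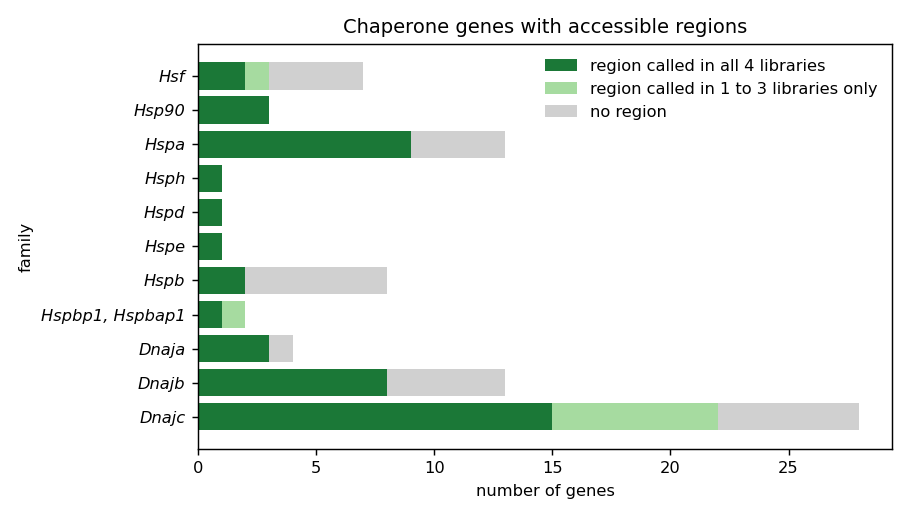
Number of chaperone genes (horizontal axis) in each family (vertical axis), split by whether a gene had a region called in all 4 libraries, only in 1 to 3 libraries, or none. All 3 Hsp90 genes and 9 of 13 Hspa genes had a region in all 4 libraries, against 2 of 8 Hspb genes and 2 of 7 Hsf genes.

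Compartment groups were drawn up from the members with earlier results of these data known. Their coverage depends on which genes were put in, so it is a description of the genes listed and not of a compartment. Over all genes, 45.8% had any region and 36.6% had one in all 4 libraries. The groups may not hold every member of a compartment. All 8 chaperone genes grouped under the lumen of the endoplasmic reticulum had a region, 7 of them in all 4 libraries: Hspa5, Hspa13, Hsp90b1, Dnajb9, Dnajb11, Dnajc3 and Dnajc10. The eighth, Dnajc1, was called in 3. All 8 genes grouped as mitochondrial had a region as well, 6 of them in all 4 libraries. So did all 3 genes grouped as nuclear, 2 of them in all 4 libraries. The genes without a region numbered 26. Of the small heat shock genes they were Hspb2, Hspb3 and Hspb7, which are known from muscle, the stress-inducible Hspb1 and Hspb8, and Hspb9. Of the Hsp70 genes they were the inducible Hspa1a and Hspa1b, the testis gene Hspa1l and the endothelial gene Hspa12b. Of the genes with Hsf symbols they were Hsf2bp, Hsf3, Hsf5 and Hsfy2. Of the J proteins they were Dnaja4, Dnajb3, Dnajb7, Dnajb8, Dnajb13, Dnajb14, Dnajc5b, Dnajc5g, Dnajc6, Dnajc18, Dnajc22 and Dnajc28. Those outside the Hsf and Hspa families are named to complete the count.

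Of the 65 chaperone regions, 47 (72.3%) were called in all 4 libraries, against 8705 of 15328 (56.8%). Another 9 were called in 3 libraries, 6 in 1 library and 1 in a single library of each genotype. The 47 had a median width of 740 bp, against 635 bp for all regions called in all 4, and the other 18 had a median width of 328 bp. In 55 regions the overlap was with the 1 kb either side of a member's end, and 43 of these were called in all 4. The 10 regions inside genes and away from ends included 4 called in all 4. Many of the ends are shared: 19 regions also lay at the end of another protein-coding gene, such as Bop1 beside Hsf1, Cdnf beside Hspa14 and Ttc41 beside Hsp90b1, so their signal belongs to either gene.

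Summits sat just upstream of starts. Of 38 gene and region pairs with an annotated start in the sequence table, 37 had a median summit within 1 kb of it, 26 of them upstream. The median distance was -59.0 bp, and the median range of a summit across the 4 libraries was 81.0 bp. At Dnajb9 the summit was at -124 and -114 bp in Chd7-/- and -124 and -115 bp in wild type. At Dnajc3 it was at -146 and -145 bp in Chd7-/- and -154 and -140 bp in wild type. At Hspa2 it was at -318 and -333 bp in Chd7-/- and -325 and -332 bp in wild type. These summits thus moved by 15 bp or less over the 4 libraries. Of the 6 Hspa genes with an annotated start and a region in all 4 libraries, Hspa12a had the summit that moved most, at -3 and 44 bp in Chd7-/- and 290 and 13 bp in wild type.

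**Figure D2:**
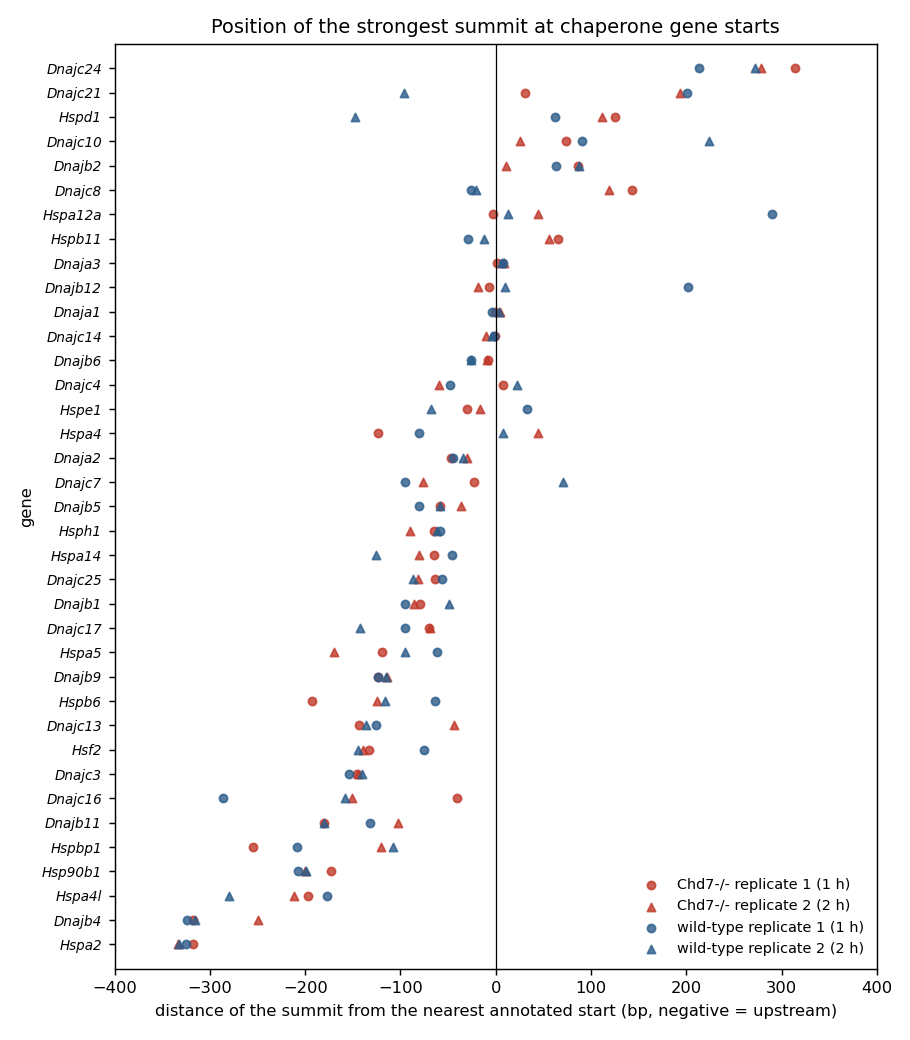
Distance in bp of the strongest summit in each library from the nearest annotated start (horizontal axis, negative is upstream) for the 37 gene and region pairs within 1 kb, by gene (vertical axis); red is Chd7-/-, blue is wild type, circles are 1 h and triangles 2 h. Most points lie between the start and 200 bp upstream, and the genotypes overlap.

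Of the heat shock factors, Hsf1 and Hsf2 had regions in all 4 libraries. Hsf1, the main activator of the heat shock response, had summit pileups of 28 and 30 in Chd7-/- and 29 and 33 in wild type. The ranges overlapped, and the log2 difference in centred pileup, Chd7-/- minus wild type, was -0.01 (SE 0.19). Hsf2, which works with HSF1 and in development, had pileups of 23 and 18 in Chd7-/- and 17 and 24 in wild type, with a difference of 0.09 (SE 0.19). Here and below, pileups plus a pseudocount of 1 were put on a log2 scale, centred on each library's median and compared by limma with Benjamini-Hochberg adjustment over the 8704 regions called, with a pileup, in all 4 libraries. Fold changes on this scale understate changes at low pileup.

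Hsf4, a factor known from the lens, had a region only in wild type. The region, chr8:105276337-105276656, was called in neither Chd7-/- library and had pileups of 8 and 11 in wild type. It lay 492 bp beyond the end of Hsf4 and 192 bp from the nearest end of Nol3, and it belonged to both genes by the same rule. In the wild-type lists it stood at percentiles of 8.34 and 11.0 of fold enrichment, the ratio of pileup to local background as the authors' caller gave it. Peaks this weak are near the limit of calling, and a missing call does not show that the site was closed.

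The Hsp90 genes were open in both genotypes. Hsp90aa1, the stress-inducible cytosolic form, had pileups of 90 and 78 in Chd7-/- and 81 and 90 in wild type, a log2 difference of 0.05 (SE 0.18). Hsp90b1, GRP94 of the endoplasmic reticulum, had 70 and 45 in Chd7-/- and 59 and 65 in wild type, a difference of -0.06 (SE 0.21). The raw pileups overlapped at both genes. Hsp90ab1, the constitutive cytosolic form, had 30 and 24 in Chd7-/- and 22 and 33 in wild type at its promoter region, chr17:45573188-45574090, a difference of 0.07 (SE 0.20).

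Hsp90ab1 had a second region that was called in wild type only. It lay 118 bp from the promoter region, inside the gene, at chr17:45572564-45573069. Neither Chd7-/- list held a peak there, and the pileups in wild type were 20 and 18, with −log10 q values of 7.92 and 5.34 in the authors' lists. In fold enrichment these peaks stood at percentiles of only 13.1 and 3.10. As at Hsf4, a missing call does not show that the site was closed. The wild-type peaks overlapped each other over part of the region only. With windows of 250 bp either side of summits in place of the peaks' own edges, it was no longer a region of its own.

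The Hsp70 genes spanned a wide range. Hspa8, the constitutive cytosolic Hsp70, had the highest mean pileup of all the chaperone regions, with 106 and 93 in Chd7-/- and 104 and 98 in wild type, a log2 difference of 0.06 (SE 0.19). Hspa2, an Hsp70 known for its role in male germ cells, had 87 and 80 in Chd7-/- and 83 and 84 in wild type, a difference of 0.08 (SE 0.19). Neither gene separated the genotypes. Hspa9, the mitochondrial Hsp70 mortalin, had 55 and 37 in Chd7-/- and 50 and 52 in wild type, a difference of -0.09 (SE 0.20). Hspa14, a ribosome-associated Hsp70, had 50 and 46 in Chd7-/- and 51 and 53 in wild type, a difference of -0.03 (SE 0.18).

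The Hsp110 group, nucleotide exchange factors for Hsp70, was also open in both genotypes. Hsph1 had pileups of 62 and 62 in Chd7-/- and 59 and 64 in wild type, a log2 difference of 0.09 (SE 0.19). Hspa4 had 26 and 26 in Chd7-/- and 19 and 33 in wild type, and Hspa4l had 52 and 48 in Chd7-/- and 46 and 61 in wild type. For each of the 3 the Chd7-/- values lay within the wild-type range. The atypical members Hspa13 and Hspa12a had differences of 0.20 (SE 0.21) and 0.22 (SE 0.24), with overlapping pileups of 42 and 28 in Chd7-/- against 31 and 32 in wild type at Hspa13, and 28 and 29 in Chd7-/- against 30 and 22 in wild type at Hspa12a.

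Hspa5, which encodes BiP, the Hsp70 of the endoplasmic reticulum, had the largest difference among the chaperone regions in the fit of all 4 libraries. Its region, chr2:34771666-34772364, had pileups of 59 and 46 in Chd7-/- and 30 and 43 in wild type, and the genotypes did not overlap. Fold enrichment was 16.7 and 14.6 in the Chd7-/- lists and 11.5 and 12.6 in the wild-type lists, at percentiles of 99.2 and 97.4 in the Chd7-/- lists and 79.5 and 89.4 in the wild-type lists. The log2 difference was 0.60 (SE 0.20), a fold of 1.52. It was 0.84 between the libraries labelled 1 h and 0.37 between those labelled 2 h. The unadjusted limma p was 0.0124 and the Benjamini-Hochberg adjusted p was 0.417, so the difference did not pass. Centring on each library's lowest background in place of its median, which lowers the Chd7-/- libraries relative to wild type, gave 0.37. The rank did not hold with every library left out: without the first wild-type library Hspa5 had 0.46 and Dnajc24 0.73, and without the first Chd7-/- library Hspa5 had 0.51, Dnajc7 0.54 and Dnajc21 -0.71.

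Other chaperone genes of the endoplasmic reticulum had smaller differences. Dnajb9 (ERdj4), a J protein that binds BiP, had 102 and 78 in Chd7-/- and 83 and 88 in wild type, a log2 difference of 0.14 (SE 0.19). Dnajb11 (ERdj3) had 58 and 61 in Chd7-/- and 65 and 66 in wild type, with -0.06 (SE 0.19). Dnajc3, with the element shown above, had 85 and 66 in Chd7-/- and 75 and 93 in wild type, with -0.07 (SE 0.19). The raw pileups overlapped at Dnajb9 and Dnajc3 and were lower in both Chd7-/- libraries at Dnajb11. A test of these genes against Hspa5 was not made.

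The mitochondrial chaperonin genes share a promoter. Hspd1 (HSP60) and Hspe1 (HSP10) are divergent neighbours with 1 region, chr1:55087541-55088611, which had pileups of 93 and 83 in Chd7-/- and 83 and 92 in wild type. The log2 difference was 0.09 (SE 0.18). Dnaja3 (TID1), the J protein partner of mortalin, had 36 and 26 in Chd7-/- and 39 and 39 in wild type. Both Chd7-/- values were lower, with a difference of -0.26 (SE 0.20) and an adjusted limma p of 0.783. Dnajc30, a mitochondrial J protein, had 54 and 49 in Chd7-/- and 62 and 59 in wild type, likewise lower in both Chd7-/- libraries before centring, with -0.15 (SE 0.19). Dnajc11, a J protein of the mitochondrial membrane, had a region at its start with 28 and 26 in Chd7-/- against 22 and 25 in wild type (0.28, SE 0.18) and a region inside the gene with 13 and 15 in Chd7-/- against 14 and 24 in wild type (-0.29, SE 0.23). The difference inside the gene was -0.03 without the second wild-type library and -0.55 without the first.

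The J proteins of the cytosol and vesicles had strong and weak promoters. Dnajb1 (HSP40), the partner of cytosolic Hsp70, had pileups of 61 and 75 in Chd7-/- and 67 and 70 in wild type, a log2 difference of 0.06 (SE 0.21). Dnaja1 had 49 and 42 in Chd7-/- and 45 and 48 in wild type, and Dnaja2 had 29 and 30 in Chd7-/- and 30 and 31 in wild type. The differences at these cytosolic J proteins were 0.05 (SE 0.18) and 0.03 (SE 0.19), smaller than their errors. Dnajb4 had 36 and 37 in Chd7-/- and 38 and 36 in wild type, with 0.06 (SE 0.20).

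Dnajc13, an endosomal J protein, had 67 and 67 in Chd7-/- and 77 and 81 in wild type, lower in both Chd7-/- libraries before centring, with a log2 difference of -0.15 (SE 0.19). Dnajc5, the cysteine string protein of secretory vesicles, had 54 and 40 in Chd7-/- and 40 and 53 in wild type, with 0.09 (SE 0.19). Dnajc24, which is needed for diphthamide synthesis, had the next largest difference after Hspa5 in that fit. Its pileups were 17 and 16 in Chd7-/- and 14 and 11 in wild type, with no overlap, and the difference was 0.46 (SE 0.22; adjusted limma p 0.599). It was 0.20 without the second wild-type library and 0.73 without the first.

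Of the remaining regions with the largest differences, none had an adjusted limma p below 0.788. Dnajc7, a co-chaperone of Hsp70 and Hsp90, had 21 and 26 in Chd7-/- and 15 and 26 in wild type (0.31, SE 0.24), and the difference was 0.54 without the first and 0.08 without the second Chd7-/- library, and 0.04 without the first and 0.58 without the second wild-type library. Dnajc21, a ribosome biogenesis factor, had 26 and 12 in Chd7-/- and 20 and 26 in wild type (-0.26, SE 0.27), and without the second Chd7-/- library the sign turned to 0.18. Dnajc8, a splicing-related J protein, had 17 and 13 in Chd7-/- and 15 and 24 in wild type (-0.25, SE 0.21), with -0.04 without the second and -0.47 without the first wild-type library.

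By symbol, the small heat shock genes with a region were Hspb11 and Hspb6. Each region also belonged to another gene by the same rule, Lrrc42 at Hspb11 and Proser3 at Hspb6. Hspb11, an intraflagellar transport protein, had pileups of 63 and 60 in Chd7-/- and 62 and 73 in wild type, a log2 difference of -0.05 (SE 0.18). Hspb6, a small heat shock protein of muscle, had 25 and 30 in Chd7-/- and 16 and 37 in wild type, with 0.24 (SE 0.30). The wild-type values enclosed the Chd7-/- values, and without the first wild-type library the difference was -0.23.

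**Figure D3:**
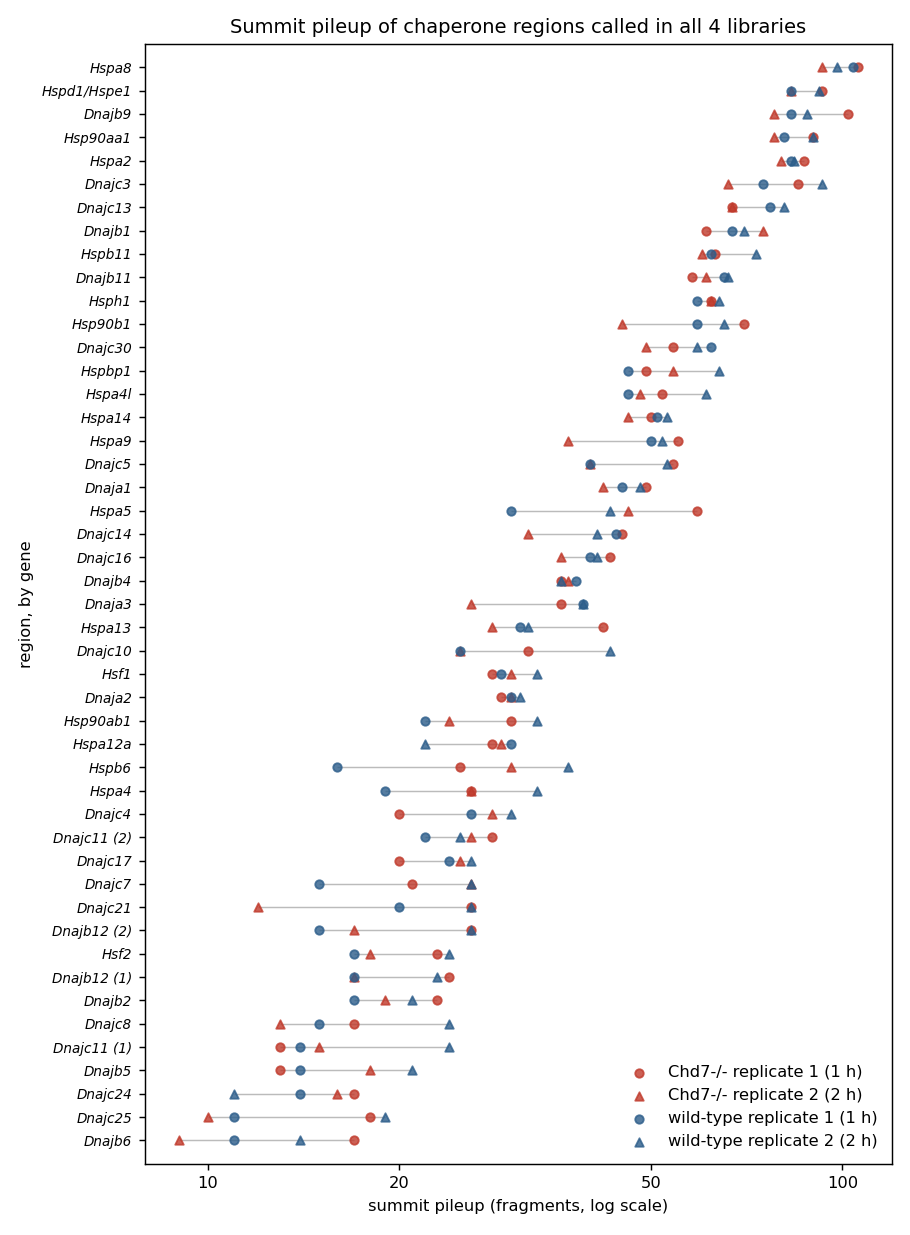
Summit pileup in fragments (horizontal log axis) of the 47 chaperone regions called in all 4 libraries, ordered by mean (vertical axis, numbered where a gene has 2 regions); red is Chd7-/-, blue is wild type, circles are 1 h and triangles 2 h, and the grey line is the range. Hspa8 is at the top with 93 to 106 fragments in all libraries, and at Hspa5 both Chd7-/- points lie right of both wild-type points.

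Apart from the Dnajb2 region, described further on, 11 regions called in all 4 libraries remained. These, at Dnajb5, Dnajb6, Dnajb12, Dnajc4, Dnajc10, Dnajc14, Dnajc16, Dnajc17, Dnajc25 and Hspbp1, had log2 differences from -0.15 to 0.17, each smaller than its SE. Dnajb6, a J protein that suppresses aggregation, had the lowest pileups among them, with 17 and 9 in Chd7-/- and 11 and 14 in wild type. The genes of this paragraph were named after their values were seen, to complete the account. Of the 9 regions called in 3 libraries, the missing call was in the first Chd7-/- library for 3 (Dnajc1, Dnajc27 and Hspbap1) and in the second for 4 (Dnajb4, Dnajc4, Dnajc9 and Dnajc15), against 1 in each wild-type library (Dnajc19 in the first, Dnajc16 in the second). Over all regions a call was missing in that library alone at 272 and 545 regions in Chd7-/- and at 536 and 223 in wild type. Of the 6 regions called in a single library, 3 were in the first Chd7-/- library (both regions of Dnajc12, and Hspbap1), 2 in the second (Dnajc5 and Hspbp1), and 1 in the second wild-type library (Dnajc2). Over all regions, those called in that library alone numbered 1236 and 718 in Chd7-/- and 505 and 863 in wild type. The last, at Dnajb5, was called in 1 library of each genotype. The 18 regions called in fewer than 4 libraries had a median percentile of fold enrichment of 22.8, against 18.2 for all such regions, and so were weak peaks.

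Across the 47 chaperone regions in the limma fit, none passed an adjusted p of 0.05, and none of the 8704 regions did (0% called). At an unadjusted p under 0.05 the count was 1 of 47, Hspa5, against 757 of 8704 (8.70%). The lowest adjusted p was 0.417 among chaperone regions and 0.213 among all. The difference was above 0 in 27 chaperone regions and below 0 in 20, so 57.4% were higher in Chd7-/-, against 53.5% of all regions. Its median was 0.047, against 0.023 over all regions, with a range of -0.29 to 0.60. In size it was within 0.3 in 44 of 47 chaperone regions (93.6%), against 76.0% of all regions. These sets differ in strength, with median percentiles of fold enrichment of 75.7 for chaperone regions and 61.0 for all. The spread of differences narrows as pileup rises, and a comparison with regions of like strength was not made.

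**Figure D4:**
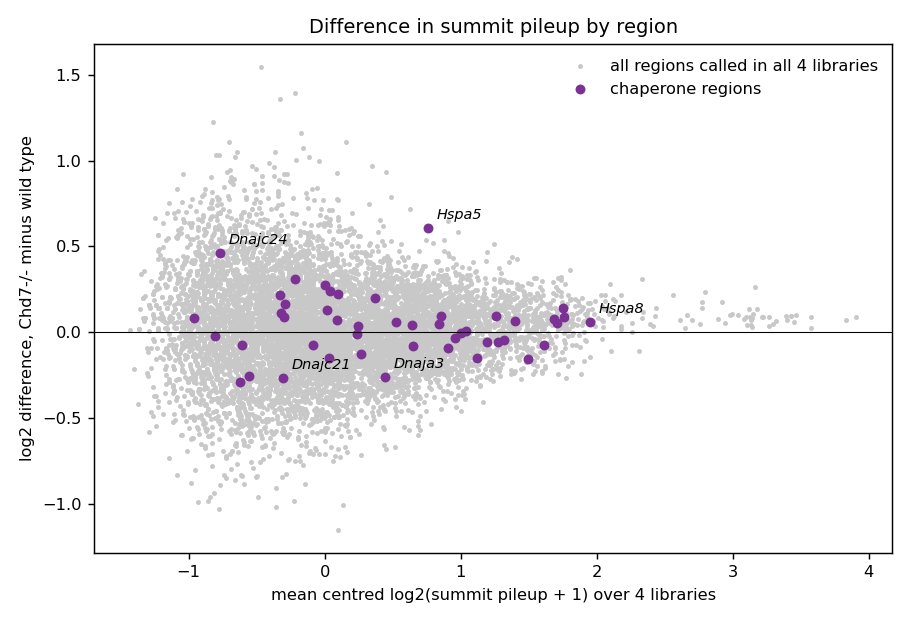
Log2 difference in centred summit pileup, Chd7-/- minus wild type (vertical axis), against the mean centred log2 pileup over the 4 libraries (horizontal axis), for the 8704 regions called in all 4 (grey) and the 47 chaperone regions among them (purple). Chaperone points lie between -0.29 and 0.60, with Hspa5 highest, and the grey spread narrows as pileup rises.

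After centring, both Chd7-/- libraries were above both wild-type libraries in 6 of the 47 regions, against 21.4% of all regions, and below both in 1, against 17.3%. The 6 were those of Hsp90aa1, Hspd1 with Hspe1, Dnajb2, Dnajc11 at its start, Dnajc24 and Hspa5, and the 1 was Dnaja3. Dnajb2, a neuronal J protein, is named to complete the count, after its values were seen, and had 23 and 19 in Chd7-/- and 17 and 21 in wild type. The sign of the difference was the same at 1 h and 2 h in 14 of 47 chaperone regions (29.8%), against 54.5% of all regions.

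By calling, no chaperone region was found in both Chd7-/- libraries and in neither wild-type library, against 2.71% of all regions. The reverse, called in both wild-type and neither Chd7-/- library, held for the Hsf4 and Hsp90ab1 regions above, 2 of 65 (3.08%), against 2.25% of all regions. The second share is near that of the whole set.

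Per library, 51 and 50 chaperone genes had a region in Chd7-/- and 52 and 54 in wild type. The means were 50.5 ± 0.707 in Chd7-/- and 53.0 ± 1.41 in wild type (SD, n = 2 each), a difference of -2.50 with an exact two-sided permutation p of 0.333, the smallest that 2 against 2 libraries allow. The difference was -1 at 1 h and -4 at 2 h, and -1.50 without the second wild-type library. The 47 regions stood at a median percentile of fold enrichment of 78.2 and 77.0 in the Chd7-/- lists and 74.5 and 76.6 in the wild-type lists. The difference of 2.06 percentile points had the same exact permutation p of 0.333, and it was 3.71 at 1 h and 0.402 at 2 h. It was 0.37 among peaks with a −log10 q of at least 5 (exact permutation p of 1.00), 1.07 without the first and 3.78 without the second wild-type library. Averaged over libraries, the percentile of a chaperone region called in all 4 had a median of 75.7, against 61.0 for all such regions.

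Partner genes outside the naming rule were examined in the same way. Of 32 co-chaperones and chaperone relatives, 31 had a region and 29 had one in all 4 libraries, beside 45.8% and 36.6% of all genes. In the limma fit 0 of their 32 regions passed an adjusted p of 0.05 and 3 had an unadjusted p under 0.05, beside 8.70% of all regions. The median log2 difference was 0.013, and 16 of the 32 regions were higher in Chd7-/-, beside 53.5% of all regions. The 3 regions, named after their values were seen, were at Clpb, a mitochondrial disaggregase (14 and 16 in Chd7-/-, 8 and 11 in wild type, 0.70), Cdc37, which brings kinases to Hsp90 (22 and 17 in Chd7-/-, 12 and 14 in wild type, 0.62), and Sgta, a co-chaperone of tail-anchored proteins (32 and 29 in Chd7-/-, 20 and 28 in wild type, 0.43). Their adjusted limma p-values were 0.387, 0.387 and 0.569. Bag2, an inhibitor of the ubiquitin ligase CHIP, had the 1 region called in wild type only among the 37 of these genes, with pileups of 10 and 13, beside 2.25% of all regions.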

How the data were processed

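ATAC-seq peak lists of 4 libraries were analysed, 2 of Chd7-/- and 2 of wild-type G1ER cells, grouped by the sample titles. The submitters' processing notes name Bowtie2 (2.2.1) and MACS2 (2.1.0) without a role. The peak names give GRCm38, and each library has its own list. How peaks were thresholded, whether reads were shifted for the transposase and how duplicates and blacklisted sites were handled is not given in the sources used here. Per peak the authors deposited a score, a fold enrichment (a ratio of pileup to local background at the summit) and −log10 p and −log10 q values. Percentiles are of fold enrichment within a list.

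Whole-number summit pileups and backgrounds were recovered from the Poisson −log10 p and the fold enrichment, with 1 added to its numerator and denominator, within a tolerance of 0.001, for 99.99% of peaks in each library. This assumes that pileups were not rescaled. Peaks of the autosomes, X and Y that overlapped or touched were merged into 15328 regions. With limma 3.58.1 (R 4.3.3), log2 of pileup plus a pseudocount of 1, after subtracting the library's median, was compared between genotypes, with Benjamini-Hochberg adjustment over 8704 regions and a threshold of 0.05. Single values of a library were tested by exact permutation of genotype over all 6 assignments, two-sided. Promoters came from a RefSeq table of GRCm38.p6, which matched 65 of 81 genes. Further software was matplotlib 3.10.9, scipy 1.17.1, pandas 2.3.3, numpy 2.4.6 and Python 3.11.15. The recovery and the limma fit were tested on simulated data.

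The members and lists were chosen with earlier results of these data known. Named genes were all Hsf, Hsp90, Hspd, Hspe, Hsph and Hspa genes, up to 4 genes each of Dnaja, Dnajb, Dnajc and Hspb by mean percentile, those called in 1 genotype only, those of the 5 regions with the largest and the 5 with the smallest difference, and those whose sequence is shown. Alternatives were a −log10 q of 5 or more, lists cut to equal length, 500 bp around gene ends, windows of 250 bp either side of summits, a pseudocount of 5, centring on the lowest background, regions called in at least 3 libraries, a replicate block and each library left out.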

Additional observations from a re-analysis of the deposited data

How the results depend on the processing

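The number of chaperone genes with a region in all 4 libraries, the difference in genes per library, the difference in median percentile and the count of 0 chaperone regions past the limma threshold kept their direction and side of the threshold under each alternative run for them, though 2 against 2 libraries cannot pass a permutation threshold of 0.05. With a library left out, the difference in genes per library lay between -3.50 and -1.50 and that in median percentile between 1.07 and 3.78, and the percentile difference was 0.37 with a −log10 q of at least 5. With centring on the lowest background, 70 of all regions passed and the chaperone median was -0.187, while the median of all regions was -0.211. The gap of 0.024 between them cannot change with the centring, which shifts all regions of a library alike. With a replicate block 2 of all regions passed, and Hspa5 kept 0.60 with an adjusted p of 0.358. The deviations of same-numbered libraries from their group means had a correlation of 0.00216 over 8704 regions, and same-numbered libraries share only a labelled time. Regions called in wild type only numbered 1 with a −log10 q of at least 5 (Hsp90ab1), 1 with lists of equal length (Hsp90ab1), 1 with 250 bp windows (Hsf4), and 2 to 6 with a library left out. Regions called in Chd7-/- only numbered 1 to 3 with a library left out, where a single library stands for its genotype. Over the libraries left out, Dnajc21 ranged from -0.71 to 0.18, Hspb6 from -0.23 to 0.71, Hspa5 from 0.46 to 0.75, Dnajc24 from 0.20 to 0.73, Dnajc7 from 0.04 to 0.58, Dnajc8 from -0.47 to -0.04, Dnaja3 from -0.40 to -0.12, Dnajc13 from -0.24 to -0.07, Dnajc11 inside the gene from -0.55 to -0.03 and the chaperone median from -0.012 to 0.066. Over all alternatives Hspa5 ranged from 0.37 to 0.75 with adjusted p between 0.349 and 0.849. The causes were not tested. The fit had 2 libraries a genotype and a median SE of 0.20, and total reads were not known.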
